A study of Rattus norvegicus with 6 samples.

Results

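Exon circRNAs of mouse pancreatic islets that have no entry in circBase, a public catalogue of circRNAs, and that span less than 10000 bases of genome were described here. They were taken from the authors' annotation of mouse islet circRNAs by 3 criteria, namely the class exon, an empty circBase field, and an end minus start plus 1 below 10000. This gave 4615 of 15925 circRNAs, or 51.5% of the 8957 exon circRNAs that circBase lacks and 31.4% of the 14675 exon circRNAs. No measured level entered the rule. All 4615 have a host gene symbol, and they fall in 2615 host genes.

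The annotation was made from RNA sequencing of mouse islets of an earlier study. Its only level used here is a mean of normalized back-splice junction reads over mice on a normal diet, which the authors deposited as 1 pooled value per circRNA. It has no replicates and its depth is unknown, so the means were compared as a description, without a test. Positions follow the authors' table. Its genome build was not given in the sources used. The series itself holds 6 rat libraries, from dissociated islet cells of male Wistar rats aged 12 weeks. Of these, 3 were transfected with a gapmeR against ci-Ins2, a circular RNA made from an intron of the insulin gene Ins2, and 3 with a control gapmeR, and RNA was taken 48 h later. They served to describe the host genes.

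An exon circRNA arises when the spliceosome joins a downstream donor site to an upstream acceptor site, a reaction called back-splicing. Intronic circRNAs such as ci-Ins2 typically derive, per the study, from introns spliced out as lariats. The closed ring has no free ends and resists exonucleases, so circRNAs can accumulate in cells that divide little, such as neurons and endocrine cells. In the islet, beta cells store insulin and alpha cells store glucagon in dense granules, and the genes for the hormones, for the enzymes that process them and for the granule membrane are among the most transcribed of these cells. Genes listed under these headings host 42 of the 4615 circRNAs. No genome sequence of the mouse was used here, so positions are given and no circRNA sequence is printed.

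The 4615 circRNAs were mostly rare. Their means ran from 0.952 to 1443 normalized junction reads, with a median of 2.08 and quartiles of 1.04 and 4.41. The lowest level, 0.952, was shared by 649 of them (14.1%) and the next, 1.04, by 578 more, so that 26.6% sat on these 2 values. A mean of at least 5 was reached by 957 (20.7%), of at least 10 by 331 (7.17%), of at least 50 by 21 and of at least 100 by 6. The 957 circRNAs at 5 or more held 63.2% of the summed mean, and the highest alone held 7.12%.

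Compared with the exon circRNAs of the same length range that circBase lists, the unlisted ones were lower. The 2972 listed exon circRNAs under 10 kb had a median mean of 7.40 normalized junction reads, and 61.2% of them were at 5 or more. Length made little difference to this contrast. The 4342 unlisted exon circRNAs of 10 kb and more had a median of 1.99 with 19.0% at 5 or more, and the 2746 listed ones of 10 kb and more had a median of 6.36 with 56.4% at 5 or more. The described circRNAs make up 29.0% of all circRNAs of the annotation and 10.7% of the summed mean.

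**Figure D1:**
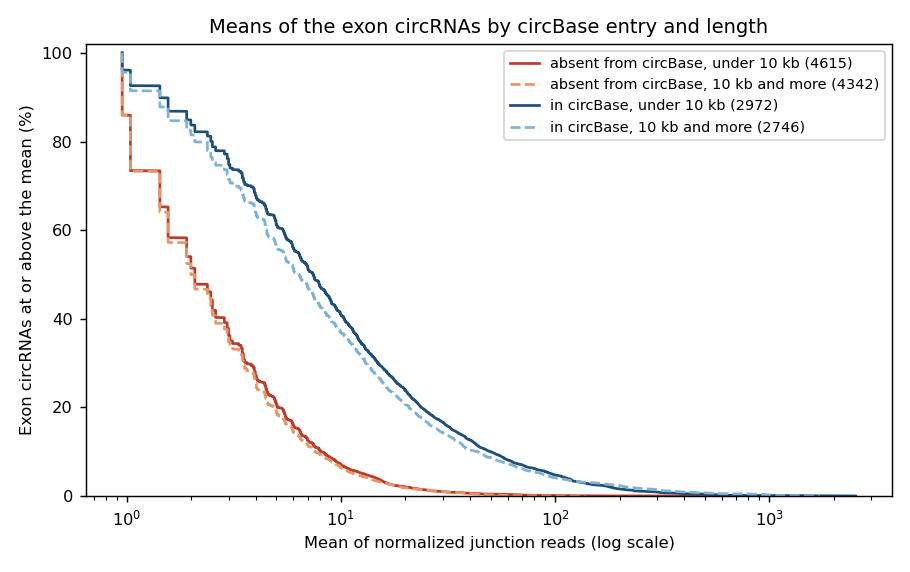
Share of exon circRNAs (%, vertical axis) at or above a given mean of normalized junction reads (log scale, horizontal axis), with 1 line for each class by circBase entry and length. The lines of both unlisted classes lie below those of both listed classes, with 20.7% of the unlisted and 61.2% of the listed circRNAs under 10 kb at 5 or more.

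Lengths ran from 139 to 9997 bases, with a median of 4381. The shortest are circ_20539 of Fndc3a with 139 bases, circ_16328 of Sorbs2 with 140 bases and circ_01229 of Malat1 with 142 bases. Malat1 is a nuclear long noncoding RNA, and circ_01229 had a mean of 65.0 normalized junction reads, the sixteenth highest, against 1.43 and 1.04 for circ_20539 and circ_16328. Near the upper limit, circ_10085 of Samd8 (9997 bases) had a mean of 3.03, and circ_17068 of Tm9sf4 (9989 bases) and circ_22860 of C87436 (9988 bases) had 0.952 each. Just outside it, circ_07927 of Cadps (10000 bases) and circ_17333 of Bard1 (10003 bases) had means of 1.04, and circ_08589 of Cc2d2b (10005 bases) had 5.89. The level hardly followed length. From 500 bases on, the median mean lay between 1.99 and 2.08 normalized junction reads in every length range. The 112 circRNAs of 300 to under 500 bases had the highest median, 2.51, with 24.1% at 5 or more. The 78 circRNAs under 300 bases had a median of 1.43 with 9 of them at 5 or more.

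The highest circRNA was circ_00011 of Mlxipl, on chromosome 5 from 135121505 to 135124017. It had a mean of 1443 normalized junction reads and ranked 6 of all 15925. Mlxipl encodes ChREBP, a transcription factor that responds to glucose. Mlxipl has 3 circRNAs in the annotation and all are unlisted and short. Its circ_01149 shares the donor site of circ_00011 and starts 2144 bases further downstream, with a mean of 50.5. Its circ_04551 shares the acceptor site and ends 4680 bases further downstream, with a mean of 4.98. The mean of circ_00011 was therefore 28.6 times that of circ_01149 and 290 times that of circ_04551.

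The next highest were circRNAs of secretory and signaling genes. Ero1lb, whose product takes part in oxidative protein folding in the endoplasmic reticulum, hosts circ_00143 (mean 205, chromosome 13, 12574819 to 12583610) and circ_00222 (mean 114, 12599860 to 12604461). Sytl4 encodes granuphilin, which docks insulin granules at the plasma membrane, and hosts circ_00217 (mean 133, chromosome X, 133960666 to 133962297). The kinase gene Map3k15 hosts circ_00181 (mean 135) and Pde8a, which encodes a cAMP phosphodiesterase, hosts circ_00403 (mean 103). The remaining 4 of the first 10 were circ_00439 of Rnf214 (85.9), circ_00271 of Pappa2 (85.8), circ_00434 of the splicing kinase gene Clk1 (81.0) and circ_00447 of Vps13c (79.9). Of these 10, circ_00434 is the shortest with 372 bases. All 10 have entries in circAtlas and CIRCpedia, other circRNA catalogues whose identifiers the annotation also gives.

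**Figure D2:**
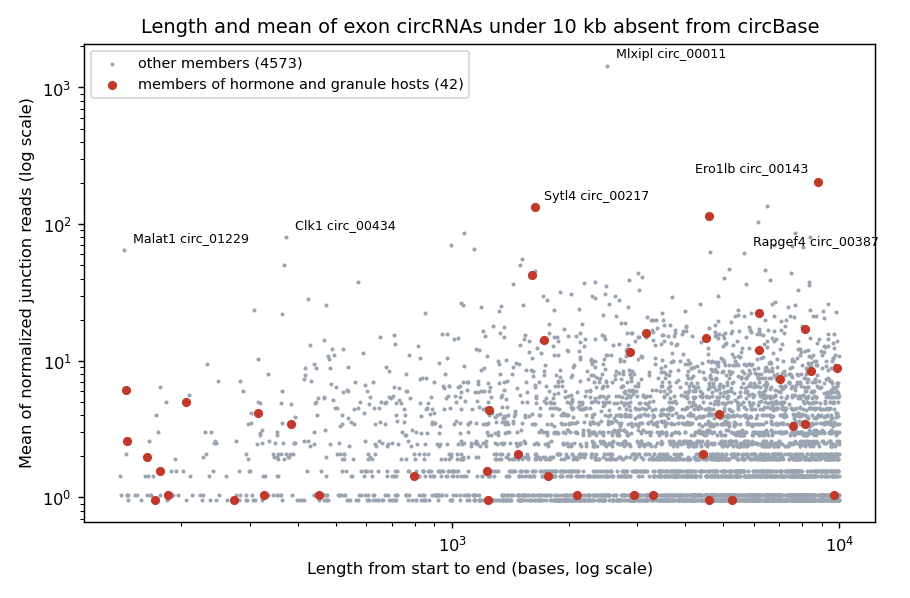
Length in bases (log scale, horizontal axis) and mean of normalized junction reads (log scale, vertical axis) of each of the 4615 circRNAs, with the 42 of hormone and granule hosts in red. Points lie in rows at low means because many circRNAs share the same value, such as the 649 at 0.952, and circ_00011 of Mlxipl stands alone at 1443.

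Most host genes gave rise to few of these circRNAs. A single one was found in 1607 of the 2615 host genes (61.5%), 2 in 562, 3 in 221, and 5 or more in 130 (4.97%), which together hold 841. Protein-coding genes hosted 4570 of the 4615, long noncoding RNA genes 35, and the rest lay in pseudogenes or in 1 gene still to be verified. Other circRNAs of the same gene were common but not the rule. An exon circRNA listed in circBase exists in the annotation for 1275 of the host genes, and 1340 (51.2%) have none. In 968 host genes (37.0%) every annotated circRNA is unlisted, of the exon class and under 10 kb. The median mean of the circRNAs was 2.08 normalized junction reads in host genes with and without a listed exon circRNA alike.

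Dennd4c, which encodes an exchange factor for Rab GTPases, hosts the most, with 23 on chromosome 4 between 86774237 and 86841102. Their means ran from 1.04 to 43.8 with a median of 6.49, and 12 of the 23 were at 5 or more. They use 14 acceptor and 15 donor sites over 66866 bases, and 22 of the 23 share an acceptor or a donor with another of them. The highest is circ_00816, which runs from 86774237 to 86781711. Its acceptor also opens circ_02802 (15.3) and circ_08889 (3.12), and its donor also closes circ_01517 (23.2) and circ_02299 (13.9). Dennd4c has 33 circRNAs in the annotation, and these 23 hold 65.0% of their summed mean.

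The other host genes with many of these circRNAs were Ckap5, a regulator of microtubule growth, with 14, then Usp48, Ncor1 and Birc6 with 12 each, Ints8 and Pik3c2a with 11 each, Sec31a with 10, and Mga and Chd9 with 9 each, a number that Utrn, Tnks2 and Xrn1 also reach. Usp48 is a deubiquitinase gene, Ncor1 a nuclear corepressor gene, Birc6 a gene for a large ubiquitin ligase that inhibits caspases, Ints8 a subunit gene of the Integrator complex, Pik3c2a a lipid kinase gene and Sec31a a coat gene of vesicles that leave the endoplasmic reticulum. The highest means lay between 8.70 in Birc6 and 28.1 in Ints8 for the genes from Ckap5 to Chd9, and were 8.35 in Utrn, 9.39 in Tnks2 and 5.07 in Xrn1. In Ints8 no exon circRNA is listed in circBase, and its 11 short unlisted ones hold 91.3% of the summed mean of all its circRNAs. In Pik3c2a, with 11 listed ones, the short unlisted ones hold 5.60%. Among the 130 host genes with 5 or more, the highest circRNA held between 17.0% and 88.0% of their summed mean, with a median of 36.2%.

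Some back-splice sites were reused, though less often than among unlisted exon circRNAs of 10 kb and more, where 2324 of 4342 (53.5%) share an end within their class. Of the 4615, 1289 (27.9%) share an acceptor or a donor with another of the 4615, 718 of them an acceptor and 693 a donor. An exon circRNA of circBase on the same strand uses the acceptor or donor of 1265 (27.4%), with 645 sharing the acceptor alone, 532 the donor alone and 88 each end with a listed circRNA. Set against listed circRNAs under 10 kb alone, the share was 16.3%. Those 1265 had a median mean of 2.47 normalized junction reads, and the 3350 that share neither end had 2.08. Unlisted exon circRNAs of 10 kb and more shared an end with a listed one more often, in 49.6% of 4342. No test was made of these differences.

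**Figure D3:**
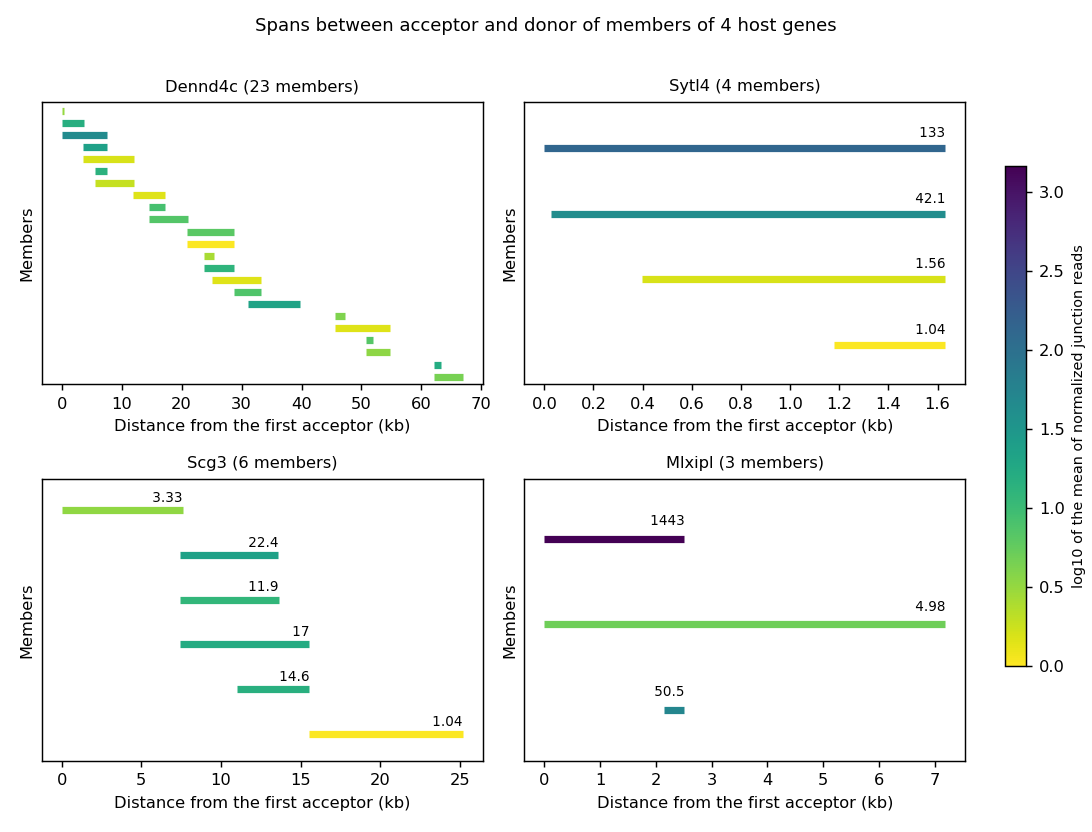
Spans from acceptor to donor of the circRNAs of Dennd4c (23), Sytl4 (4), Scg3 (6) and Mlxipl (3), as distance in kb from the first acceptor of each gene in the direction of transcription, with 1 bar per circRNA and colour for the log10 of its mean of normalized junction reads. Bars of Sytl4 all end at the same donor while those of Dennd4c are spread over 66866 bases, with stretches that no bar covers. Numbers in the other 3 panels are the means.

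For 35 of the 4615, in 34 host genes, a circBase circRNA lies within 50 bases at both ends on the same strand. In all 35 the ends agree exactly at 1 side and differ at the other, by 3 to 45 bases, and by 3 or 4 bases in 15. In 32 of the 35 pairs the listed circRNA had the higher mean, with a median ratio of 18.5 over all 35 pairs. In the pair with the highest unlisted mean, chosen after its values were seen, circ_01493 of Psd3 had 15.3 normalized junction reads and the listed circ_00051 had 377, with acceptors 3 bases apart. The 3 exceptions, also chosen after their values were seen, are circ_04018 of Gspt1 (9.91, listed neighbour 8.87), circ_06669 of Ehmt1 (3.46, listed neighbour 1.90) and circ_19792 of Ncoa6 (1.56, listed neighbour 0.952).

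Absence from circBase was seldom absence from all catalogues. Of the 4615, 4230 (91.7%) have a circAtlas entry and 3045 (66.0%) a CIRCpedia entry, 3019 have entries in each, and 359 (7.78%) have neither. The 359 were lower, with a median mean of 1.04 normalized junction reads and 14 (3.90%) at 5 or more, while the 4256 with an entry had a median of 2.38 and 943 (22.2%) at 5 or more. Short circRNAs lacked entries more often. Neither catalogue lists 25 of the 78 under 300 bases (32.1%), and the share was between 6.32% and 9.82% in each range of length above that. The highest circRNA with neither entry is circ_01229 of Malat1, followed by circ_01614 of Gcg (15.9), circ_04004 of Pcsk2 (11.5) and circ_03692 of Slc30a8 (8.44).

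The circRNAs of islet hormone and granule hosts were often in neither catalogue. Lists of hormone genes, of granule cargo and processing genes and of granule membrane genes hold 38 genes, of which 17 host 42 of these circRNAs. The 17 include Ero1lb, whose product acts in the endoplasmic reticulum, and Slc2a2, a glucose transporter gene of the plasma membrane. Neither catalogue lists 22 of the 42 (52.4%), against 337 of the other 4573 (7.37%). Among those with a mean of at least 5 normalized junction reads it was 4 of 15 (26.7%), against 10 of 942 (1.06%), and among those of 300 bases and more it was 16 of 34 (47.1%), against 318 of 4503 (7.06%). The 42 had a median mean of 3.38, against 2.08, and a median length of 1932.5 bases, against 4395 bases. The 22 were spread unevenly over the hosts, with 5 of 5 in Gcg, 4 of 5 in Chga and 2 of 2 in Ins1. Scg3 had 1 of 6 and Ero1lb 1 of 5 in neither catalogue, and Scg2, Cpe, Pam, Scg5 and Ptprn2 had none. The lists were drawn up with results of these data known and no test was made.

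Of the hormone genes, only Gcg and Ins1 host unlisted short exon circRNAs. The Ins2 circRNAs of the annotation are all of the intron class and Iapp, Sst, Ppy, Pyy and Ghrl have no circRNA in it. Gcg, which encodes proglucagon, hosts 5 on chromosome 2, none in either catalogue. Their means were 15.9 for circ_01614 (3167 bases), 4.37 for circ_07822 (1247 bases), 2.60 for circ_05303 (145 bases), 1.99 for circ_09402 (163 bases) and 1.43 for circ_15225 (1770 bases). The first therefore held most of the Gcg signal. Ins1, the second insulin gene of mice, hosts circ_08584 (chromosome 19, 52264648 to 52264853, 206 bases, mean 4.98) and circ_25207 (52264807 to 52264991, 185 bases, mean 1.04), neither in a catalogue.

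Both Ins1 circRNAs are annotated on the minus strand, and the table names Ins1 itself as the gene antisense to them. The same holds for circ_15225 of Gcg, which lies on the plus strand while the other 4 Gcg circRNAs lie on the minus strand, and for circ_27528 of Chga (171 bases, mean 0.952). In all, 13 of the 4615 (0.282%) are placed opposite to their own host gene, in 12 host genes, with means from 0.952 to 5.93. The highest, chosen after its values were seen, is circ_07941 of the pseudogene Gpr137b-ps. Of the 13, 7 are under 300 bases, as are 78 of all 4615, and 9 are in neither catalogue. No exon circRNA of circBase and no unlisted exon circRNA of 10 kb and more was placed in this way. In the intron and intergenic classes it was 23 of 1250 (1.84%). Without the 13, the share in neither catalogue was 18 of 38 for the hormone and granule hosts, against 332 of 4564 for the others.

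Among the granule cargo and processing genes, 10 of 17 host 26 of these circRNAs, with 11 at 5 or more. Ero1lb hosts 5, of which 3 open at the same acceptor, 12599860, and had means of 114 (circ_00222, 4602 bases), 7.40 (circ_03622, 7024 bases) and 8.92 (circ_03170, 9852 bases). The shortest of these 3 was the highest. Ero1lb hosts 12 circRNAs in all and its 5 short unlisted ones hold 90.7% of their summed mean. Scg3, which encodes secretogranin III, a protein that sorts granule cargo, hosts 6 with means of 22.4, 17.0, 14.6, 11.9, 3.33 and 1.04. Its circ_01033 (22.4) and circ_02055 (11.9) share the acceptor and their donors lie 15 bases apart. No Scg3 circRNA of the exon class is listed in circBase.

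Chga, the gene of chromogranin A, hosts 5 and Chgb, that of chromogranin B, hosts 1. In Chga, 4 end at the same donor, 102563073 on chromosome 12, with means of 14.2 (circ_02192), 4.16 (circ_07027), 0.952 (circ_12242) and 0.952 (circ_27531), and circ_02192 alone has a circAtlas entry. For Chgb, circ_24998 had a mean of 1.04. The prohormone convertase gene Pcsk2 hosts 3, circ_04004 (11.5), circ_09427 (3.42) and circ_15302 (0.952), while Pcsk1, the other convertase gene, hosts circ_26918 (1.04). Secretogranin II gene Scg2 hosts circ_03763, which is 144 bases long and had a mean of 6.06, and circ_20129 (176 bases, 1.56). The carboxypeptidase gene Cpe hosts circ_03375 (4.07), the amidating enzyme gene Pam circ_17125 (2.08) and Scg5, which encodes a chaperone of Pcsk2, circ_25116 (1.04).

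Of the 13 genes in the granule membrane list, which also holds the plasma membrane transporter gene Slc2a2, 5 host 9 of these circRNAs. In Sytl4 all 4 end at the same donor, 133960666, and the longer ones had the higher means, at 133 for circ_00217 (1632 bases), 42.1 for circ_00655 (1605 bases), 1.56 for circ_18297 (1233 bases) and 1.04 for circ_11589 (453 bases). The acceptors of the first 2 lie 27 bases apart, and circ_00217 was 3.15 times as high. Of 446 host genes with 3 or more of these circRNAs, 14 have a single acceptor or a single donor for all of them. The zinc transporter gene Slc30a8 hosts circ_03692 (8.44). Ptprn2 and Ptprn, which encode the granule proteins phogrin and IA-2, host circ_10149 (3.46), circ_14325 (2.08) and circ_20196 (1.43), and the glucose transporter gene Slc2a2 hosts circ_13832 (1.04).

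**Figure D4:**
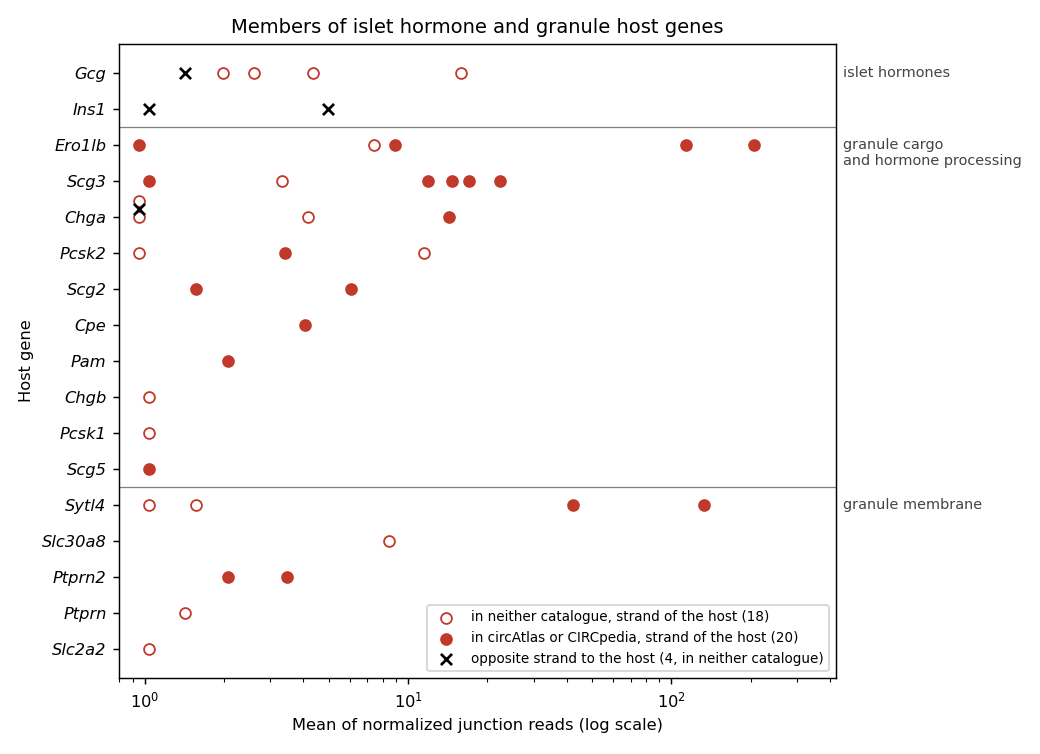
Mean of normalized junction reads (log scale, horizontal axis) of each of the 42 circRNAs of hormone and granule host genes (vertical axis, grouped by list). Filled points have an entry in circAtlas or CIRCpedia, open points have neither, crosses mark the 4 placed opposite to their host, and equal values in a row are set apart in height. All Gcg and Ins1 circRNAs are open points or crosses, and those of Ero1lb and Sytl4 reach 205 and 133.

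Beyond the granule, 15 of 29 genes of the exocytosis machinery host 23, all with an entry in circAtlas or CIRCpedia. The highest were circ_00387 of Rapgef4, the cAMP sensor Epac2, with a mean of 61.3, circ_01343 of the priming factor gene Unc13b (20.6), circ_03474 of Cadps (12.6) and circ_04284 of Exoc6b (8.96). Ion channel and pump genes host 23 in 12 of 23 genes, led by circ_02574 of the potassium channel gene Kcnma1 (16.5), circ_04792 of Abcc8, the sulfonylurea receptor (7.53), circ_04058 of the calcium channel gene Cacna1a (6.93) and circ_06871 of Cacna1c (6.24). Of 25 islet transcription factor genes 7 host 11, with Pax6 next to Mlxipl at 12.2 for circ_03102 and 7.88 for circ_02710. Only 9 of the 25 host a circRNA of any class. Pdx1, Nkx6-1, Mafa and Neurod1, which act in beta cells, are not among the 9, so their absence is not particular to unlisted short exon circRNAs.

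Receptor and cAMP genes host 9 with a highest mean of 9.39 for circ_02766 of Adcy9, and the incretin receptor gene Glp1r hosts circ_06464 (4.41) and circ_07242 (3.55). In the list of glucose sensing and metabolism the means stayed under 6, with the highest, circ_06302 of Pfkfb2, at 5.97. The acceptor of circ_06302 serves 4 of the 4615, not all assigned to Pfkfb2, so that its host is uncertain. Markers of other pancreatic cells host 7 in all, namely 1 of the acinar gene Cpb1, 3 of the ductal gene Krt7, 1 of the endothelial gene Pecam1 and 2 of the macrophage gene Adgre1, with means from 1.43 to 4.98. Genes for regulators of back-splicing host 8, led by circ_06901 of Mbnl1 (2.94).

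The host genes were then followed in rat islet cells treated with the ci-Ins2 gapmeR or the control gapmeR. GapmeRs are short antisense strands with a DNA centre that directs RNase H to the bound RNA, and their designed sequences are shown because they define the groups.
ci-Ins2 gapmeR: gcttacagacacatag
control gapmeR: aacacgtctatacgc
The values are abundances of annotated transcripts from poly(A) libraries, summed per gene and scaled, and they measure the linear RNA of the host genes and not their circRNAs. Of the 2615 host genes 2429 have a rat gene of the same name, 18 of them through a synonym, and 2296 passed the filter for low values. Mlxipl and Map3k15 were not matched.

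The share of host genes called lower after ci-Ins2 gapmeR was above that of all genes with a symbol, and the difference in share was not tested. By limma without a block for the animal, with Benjamini-Hochberg adjustment, 171 of the 2296 host genes (7.45%) were lower and 14 (0.610%) were higher. Over all 11039 genes with a symbol that were tested, 3.76% were lower and 1.11% were higher, and among the 8743 that host none of these circRNAs 2.79% were lower and 1.24% were higher. The median log2 change of the host genes was -0.02 and that of all genes with a symbol 0.00. Host genes were also more abundant, with a median of 16.7 in ci-Ins2 gapmeR and 17.4 in control gapmeR libraries, against 12.6 and 12.9 over all genes with a symbol, and the part of abundance in these counts was not tested. Of the 117 host genes with 5 or more circRNAs 13.7% were lower, against 6.91% of the 1390 with a single one, and their median control values were 26.8 and 16.0.

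These counts depended on the fit and fell with any 1 library left out. With the animal as a block 324 host genes (14.1%) were lower and 100 (4.36%) higher, against 10.2% and 5.46% of all genes with a symbol. Without 1 library the count of lower host genes fell to 69 without control gapmeR replicate 3, 89 without control gapmeR replicate 1, and 94, 103 and 92 without ci-Ins2 gapmeR replicates 1, 2 and 3. It fell least without control gapmeR replicate 2. The count of higher host genes was between 5 and 7 without any 1 of the 6 libraries. Counts over all genes with a symbol also fell in each of these fits, with ranges given in the last section.

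Birc6, host of 12 circRNAs, had 15.7, 16.5 and 15.0 in the ci-Ins2 gapmeR libraries, against 41.5, 36.4 and 40.0 in the control gapmeR libraries. The groups lay far apart, with a log2 change of -1.27 ± 0.07 (SE, n = 3 each, limma adjusted p = 0.000348). The host genes that fell most, among those at 5 or more and with no overlap, were Cacna1c, Hmbox1, Thoc2, Arhgef2 and Ubr1. Cacna1c, which encodes an L-type calcium channel, had 3.18, 2.65 and 2.26 in ci-Ins2 gapmeR libraries, against 15.8, 13.0 and 14.6 in control gapmeR libraries (log2 change -2.07 ± 0.12). The ubiquitin ligase gene Ubr1, host of 7, had 6.70, 6.62 and 6.64, against 22.1, 20.8 and 22.9 in control gapmeR libraries (log2 change -1.58 ± 0.06). The lack of overlap in the genes that fell most was a condition of their choice and is no further result.

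By the same rule, the host genes that rose most were Galnt18, Fancm, Grtp1, Maob and Tipin. Fancm, a DNA repair helicase gene, had 41.0, 39.0 and 35.8 in ci-Ins2 gapmeR libraries, against 18.9, 17.2 and 17.0 in control gapmeR libraries (log2 change 1.08 ± 0.07, limma adjusted p = 0.000730). Galnt18 had 10.5, 8.19 and 10.2, against 3.60, 2.72 and 4.41 in control gapmeR libraries (log2 change 1.23 ± 0.16). Gpd2, the mitochondrial glycerol phosphate dehydrogenase gene, was higher by 0.43 ± 0.06 on the log2 scale. Dennd4c, host of 23, had 41.9, 42.2 and 41.9, against 43.9, 43.3 and 44.0 in control gapmeR libraries, a log2 change of -0.06 ± 0.04 that did not pass (limma adjusted p = 0.489).

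Without the block, the hormone and most granule hosts did not pass. Ins1 had 77568, 77847 and 78766 in ci-Ins2 gapmeR libraries, against 79340, 82240 and 80397 in control gapmeR libraries (log2 change -0.05 ± 0.09), and Gcg had 23312, 20018 and 26650, against 25640, 22212 and 27392 in control gapmeR libraries (log2 change -0.11 ± 0.14). The high levels of both fit the label of islet cells. Of the 10 granule cargo hosts tested none was called by limma, with a median log2 change of -0.12. With the animal as a block, Ero1b, the rat name of Ero1lb (log2 change -0.30, adjusted p = 0.0205), Chga (-0.22, adjusted p = 0.0326) and Pam (-0.17, adjusted p = 0.0406) passed in limma.

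Of the 5 hosts in the granule membrane list, 2 were lower. Ptprn2 had 146, 137 and 136 in ci-Ins2 gapmeR libraries, against 218, 208 and 209 in control gapmeR libraries (log2 change -0.60 ± 0.05, limma adjusted p = 0.00165). Ptprn had 494, 512 and 497, against 587, 693 and 666 in control gapmeR libraries (log2 change -0.37 ± 0.07, limma adjusted p = 0.0337), and its call was lost without any 1 library except control gapmeR replicate 1, with adjusted p between 0.0781 and 0.133. Sytl4 had 422, 427 and 452, against 373, 375 and 373 in control gapmeR libraries. Its groups did not overlap, and its log2 change of 0.21 ± 0.05 had an adjusted p of 0.0509 in limma and 0.0206 with the animal as a block. Slc30a8 was at a log2 change of 0.22, with adjusted p = 0.153 in limma and 0.0436 with the block.

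Of the hosts in the other lists, 6 of 15 exocytosis genes and 6 of 11 channel and pump genes were lower and none higher, beside 7.45% of all host genes and 3.76% of all genes with a symbol lower. With the animal as a block 8 and 7 were lower and none higher, beside 14.1% of host genes and 10.2% of genes with a symbol. Rapgef4 had 18.2, 15.4 and 17.3 in ci-Ins2 gapmeR libraries, against 28.6, 24.2 and 31.2 in control gapmeR libraries (log2 change -0.69 ± 0.11, limma adjusted p = 0.0174), a call that was lost without control gapmeR replicate 1 or 3 or ci-Ins2 gapmeR replicate 2 or 3, at adjusted p between 0.0518 and 0.0666. Cadps, which primes granules, fell by 0.67 ± 0.07 on the log2 scale. Kcnma1 had 75.9, 73.8 and 65.1, against 135, 124 and 135 in control gapmeR libraries, and fell by 0.87 ± 0.07 on the log2 scale. Of 6 transcription factor hosts 2 were lower, Myt1l and Rfx3, and of 4 back-splicing regulators 2 were lower, Adar and Mbnl1, with log2 changes from -0.65 to -0.39. Of these, Myt1l, Rfx3 and Adar were named after their values were seen. Calls made for lists whose results were known in part are no independent evidence of direction.

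With the animal as a block, Pax6 (log2 change 0.24, adjusted p = 0.0124) and Pde3b (0.34, adjusted p = 0.0169) passed in limma too. The ductal marker gene Krt7 was higher, at 473, 415 and 437 in ci-Ins2 gapmeR libraries, against 371, 322 and 339 in control gapmeR libraries (log2 change 0.36 ± 0.07, limma adjusted p = 0.0452). That call was lost without any 1 of the 6 libraries, at adjusted p between 0.0548 and 0.160. Of 8 ductal markers 5 were tested and 3 were higher with and without the block, beside 1.11% of genes with a symbol, or 5.46% with the block. The summed values of the 8 were 676 to 749 in ci-Ins2 gapmeR libraries, against 545 to 599 in control gapmeR libraries. Krt7 held most of these sums, with means of 442 in ci-Ins2 gapmeR and 344 in control gapmeR libraries. The ductal marker Krt19 was low, at means of 4.37 and 2.17, and whether the rise came from ductal cells was not tested. Of the acinar (4 tested), stromal and endothelial (10 tested) and immune (6 tested) markers none was called by limma without the block. With the animal as a block, 4 stromal and endothelial markers (Col1a1, Col1a2, Col3a1 and Kdr) and 4 immune markers (C1qa, C1qb, C1qc and Lyz2) were lower, no acinar marker was called, and 10.2% of genes with a symbol were lower. The summed stromal and endothelial values were 215 to 609 in ci-Ins2 gapmeR libraries, against 315 to 738 in control gapmeR libraries, and the immune ones 19.8 to 42.0, against 34.0 to 58.3 in control gapmeR libraries. Fewer cells of a type and less RNA per cell cannot be told apart in such libraries, and the part of these other cells in the host gene counts was not tested.

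**Figure D5:**
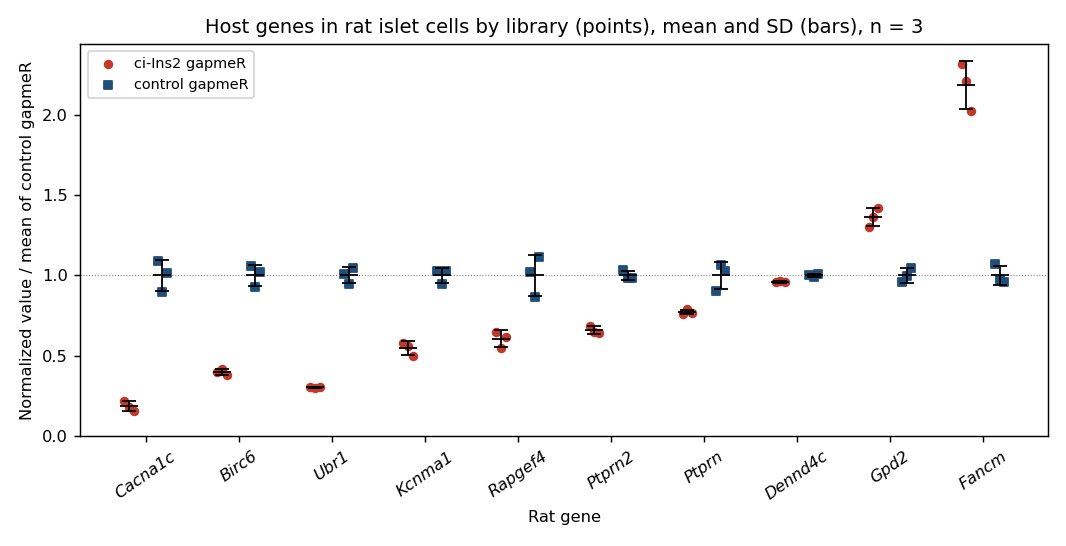
Normalized values of 10 host genes in rat islet cells, divided by the mean of the control gapmeR libraries (vertical axis), with 1 point per library, the mean and SD as bars (n = 3 per group), and ci-Ins2 gapmeR left of control gapmeR. Cacna1c, Birc6, Ubr1, Kcnma1, Rapgef4, Ptprn2 and Ptprn are lower, Gpd2 and Fancm are higher, and Dennd4c differs little.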

How the data were processed

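The authors annotated circRNAs in mouse islet RNA sequencing of an earlier study with CIRI2 and find_circ, kept those found by both, and required 2 junction reads in a sample. Its mean is a signal that the authors computed as DESeq2-normalized junction reads averaged over normal diet samples. The table was used with its coordinates, class, strand, host symbol and catalogue fields. The 6 columns of single samples of the other study, the total of junction reads, the authors' columns of fold changes and p-values, and their lists of changed genes and pathways were not used. Acceptor and donor were taken as the 5′ and 3′ ends on the annotated strand.

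The rat abundances that the authors deposited are also a signal, made with STAR 2.5.3a and RSEM 1.3.0, whose unit is not named. Each library sums to the same total, so their depth is unknown and no count test was run. Values were divided by 10 and summed over the transcripts of each of 28656 gene names. Names at 1 or more in 3 or more of the 6 libraries (13927, of which 11039 have a symbol) were divided by median-of-ratios size factors (0.962 to 1.035) and tested on log2(value + 1) with limma 3.58.1 in R 4.3.3, with a mean-variance trend. Benjamini-Hochberg adjustment ran over all names tested, with calls under 0.05. A fold change on this scale understates that of low genes. The steps were tested on simulated data. Per the study both treatments of a replicate used cells of the same animal. Deviations from group means correlated at 0.419 to 0.493 for equal replicate numbers and at -0.266 to -0.157 for unequal ones. The methods state no block, so the main fit used none and left this pairing out. The fit with the animal as a block keeps the pairing, and its counts are given beside those of the main fit.

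Named circRNAs were the 10 highest, those of the hormone and granule lists and of host genes the study names, up to 4 per other list, the 10 host genes with the most, and those at the length limits. Named rat genes were their hosts and the 5 host genes that fell and the 5 that rose most. The rule, the members and the lists were chosen with earlier results of these data known. Python 3.11.15, pandas 2.3.3 and matplotlib 3.10.9 were used for tables and plots.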

Additional observations from a re-analysis of the deposited data

How the results depend on the processing

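The number of circRNAs was 2629 with a length limit of 5000 bases, and 957 or 331 of the 4615 were left at a mean of at least 5 or 10. Their median mean of 2.08 was the same at that limit. The share with an end in a circBase circRNA was 31.9% at a mean of at least 5 and 16.3% when set against listed circRNAs under 10 kb. With the animal as a block, lower and higher host genes came to 324 and 100, and lower and higher genes with a symbol to 1122 and 603, against 415 and 122 without the block. Of the 678 tested hosts of circRNAs with a mean of at least 5, 63 (9.29%) were lower and 6 (0.885%) higher. Over all genes with a symbol, 3.76% were lower and 1.11% higher. Without a filter 74 genes with a symbol were higher. Leaving out each library in turn gave 69 to 119 lower and 5 to 7 higher host genes, and 162 to 270 lower and 29 to 62 higher genes with a symbol. The block ended no call of a named gene, and 9 gained one. Of 22 named host genes called, 14 were called under every alternative that gave a value, and 8 were lost under at least 1, among them Fndc3a, Pde8a, Vps13c and Tipin. Single values are pooled or rest on 3 libraries per group, and neither table gives its depth.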
